A study of Mus musculus with 7 samples.

Results

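Plagl1 and 9 other genes of the imprinted gene network were followed in sorted mouse Paneth cells, the granule-filled secretory cells of the small-intestinal crypt base. The set holds Plagl1, Igf2, H19, Cdkn1c, Dlk1, Peg3, Mest, Gnas, Igf2r and Grb10. These are 10 genes, of which 8 could be read from a transcript cluster (the gene-level probe set of the array) that names 1 gene, among 19938 such genes. Plagl1 brought the set together because it was the 1 gene of 13409 tested that was called lower under calorie restriction. The other 9 were named for their place in the network and not for their values. H19 is named by no cluster of the platform annotation, and the only cluster naming Gnas also names its antisense transcript Gnasas1, so neither is analysed here. Mest and Grb10 were dim, meaning that their mean lay below the filter level of 6.79 log2 units, the 40th percentile of all clusters, and they were not tested.

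Total RNA was measured on 7 Affymetrix arrays, with 1 array per sample. The mice were 4 months old. Free access to food (ad libitum, n = 3) was set against calorie restriction to 60% of that intake (n = 4), kept up for 4 to 7 weeks, and the cells were collected by flow cytometry. Arrays are numbered here by the replicate number of their labels. The labels name no genotype, strain or sex, and no agent other than the diet. They call the samples biological replicates but do not say whether each came from its own animal, so p-values measure only the spread between these samples.

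Imprinted genes are expressed mainly from the chromosome copy of 1 parent. Many of them set fetal and postnatal growth, and a group of them, among which are the genes followed here, is known to be expressed together and to fall after birth. Plagl1, also called Zac1, encodes a zinc finger transcription factor that stops the cell cycle and binds regulatory DNA of other imprinted genes, Igf2, H19, Cdkn1c and Dlk1 among them. Plagl1, Igf2, Dlk1, Peg3 and Mest are expressed from the paternal copy, H19, Cdkn1c and Igf2r from the maternal copy, and Grb10 and Gnas from a copy that depends on the tissue.

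The promoter window of Plagl1 is shown because Plagl1 is the member whose values separated the diets, and because CpG sites are where imprints are laid down. It spans 250 bases before to 50 after the RefSeq gene start (GRCm38.p6, chr10:13090582-13090881, plus strand). Capitals mark its CpG dinucleotides. The window of Peg3 is shown in part because it was the member window that held GGGGCCCC, a string close to the G-rich and C-rich site that the Plagl1 protein is known to bind. The 60 bases printed lie at chr7:6730587-6730646 on the minus strand, with the string in capitals.
Plagl1: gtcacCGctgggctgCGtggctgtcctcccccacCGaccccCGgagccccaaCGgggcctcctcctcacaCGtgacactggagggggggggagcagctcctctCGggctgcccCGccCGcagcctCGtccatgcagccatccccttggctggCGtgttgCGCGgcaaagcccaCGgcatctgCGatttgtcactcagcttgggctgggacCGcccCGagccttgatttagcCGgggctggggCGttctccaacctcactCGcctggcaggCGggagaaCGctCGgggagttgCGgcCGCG
Peg3: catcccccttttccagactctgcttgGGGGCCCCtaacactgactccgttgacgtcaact

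The Plagl1 window held 26 CpG sites and had a GC content of 70.7%, and 83.1% of the 32851 RefSeq promoter windows of the same length held fewer CpG sites. RefSeq windows were matched by symbol for 8 of the 10 members, 17 windows in all because Igf2, Gnas, Mest and Grb10 have several starts. Their median was 17 CpG sites, beside 7 over all windows. In this median a gene with several starts counts more than once, and some Mest and Gnas windows overlap. The richest was a Grb10 window with 45 CpG sites and the poorest an Igf2 window with 2. GGGGCCCC, which reads the same on both strands, was in 1 of the 17 member windows and in 1.08% of all windows. In Peg3 it began 201 bases before the gene start. These matches describe letters only, and the arrays measured neither methylation nor binding.

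Plagl1 stood at 8.13, 8.14 and 7.95 log2 units on ad libitum arrays 1 to 3. It stood at 7.53, 7.40, 7.32 and 7.17 on calorie-restricted arrays 1 to 4. Every restricted array lay below every ad libitum array, and the gap between the nearest arrays of the 2 diets was 0.42 log2 units. The means were 7.35 ± 0.15 (SD, n = 4) under restriction and 8.07 ± 0.11 (SD, n = 3) under ad libitum feeding. The difference, restricted minus ad libitum, was -0.72 ± 0.11 (SE of the moderated fit), a 1.65-fold lower level. These are the values that chose the gene, so they are a description and not a test.

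Other genes had larger negative differences than Plagl1. Its difference was the 23rd lowest of the 13409, and its unadjusted p the 46th smallest in either direction. Its spread within a diet was ordinary: the SD under restriction was at the 55.5th percentile of all tested genes and the SD under ad libitum feeding at the 32.7th. Its mean level of 7.66 was at the 54.9th percentile of all clusters. The threshold fell between Plagl1 (limma, adjusted p = 0.0365) and Dnaaf3, an assembly factor of ciliary dynein, the next gene in the lower direction (-0.50 ± 0.09, adjusted p = 0.0584). Of 14 alternative fits that included Plagl1, 5 called it, and its difference lay between -0.78 and -0.63 in all 14. Of the 7 fits without 1 array, that without ad libitum replicate 3 was the only one to call it, while adjusted p was 0.0586 to 0.152 in the other 6. In this bulk measurement, fewer cells that express a gene and less RNA per cell cannot be told apart.

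**Figure D1:**
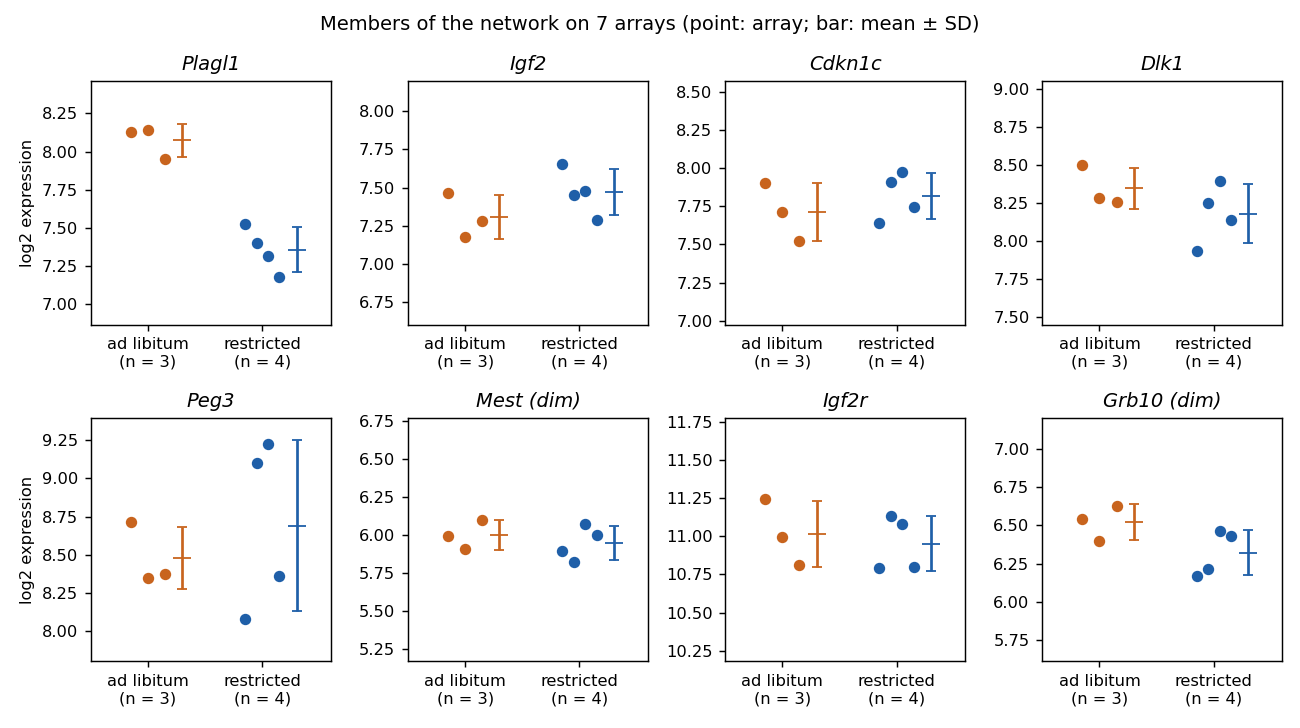
Log2 expression of the 8 readable members, with 1 panel per gene, 1 point per array, ad libitum arrays in orange and calorie-restricted arrays in blue, and the mean ± SD beside the points. All panels span the same number of log2 units. Plagl1 separates the diets by 0.42 log2 units between the nearest arrays, and in the other 7 panels the diets overlap.

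The other tested members did not differ detectably between the diets. Of the 5, 0 passed the threshold (limma, adjusted p below 0.05) and 0 had an unadjusted p below 0.05, where 0.664% of all genes tested were called, 0.656% higher and 0.00746% lower, and 9.30% had an unadjusted p below 0.05. The count passing the threshold was also 0 in each alternative fit that was run, and the lowest adjusted p was 0.0760 (limma), for Igf2 with array weights. Unadjusted p-values were not counted in the alternative fits. Of the 6 tested members, 1 had diets that did not overlap, which is Plagl1 and was fixed by its choice. Over all genes tested, 10.2% had diets that did not overlap, 3.03% in the lower direction. Of the 6 differences, 3 were positive and 3 negative, with a median of 0.02 beside 0.01 over all genes tested.

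Igf2 encodes the insulin-like growth factor 2 that drives fetal growth. It stood at 7.66, 7.45, 7.48 and 7.29 on restricted arrays 1 to 4 and at 7.46, 7.18 and 7.28 on ad libitum arrays 1 to 3. The lowest restricted array lay inside the ad libitum range, so the diets overlapped. The difference of 0.16 ± 0.11 had a 95% interval from -0.10 to 0.41 (limma, adjusted p = 0.764). This is opposite in sign to the difference of Plagl1, and the interval includes 0. The difference was 0.10 without restricted replicate 1, 0.09 without ad libitum replicate 2, 0.25 after median centring and 0.27 with array weights (limma, adjusted p = 0.0760).

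Igf2r encodes the receptor that binds IGF2 and carries it to the lysosome for breakdown. Its values were 10.8, 11.1, 11.1 and 10.8 on restricted arrays 1 to 4 and 11.2, 11.0 and 10.8 on ad libitum arrays 1 to 3. The ad libitum arrays alone spanned nearly the whole range, and the restricted arrays fell inside it or just below it. The difference was -0.07 ± 0.13 (95% interval -0.37 to 0.24, limma adjusted p = 0.927). Its sign turned after median centring of the arrays (0.02), with array weights (0.05) and without ad libitum replicate 1 (0.05), so no direction can be read.

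Grb10 encodes an adaptor that dampens signalling from the insulin and IGF1 receptors. It was dim, at 6.17, 6.22, 6.46 and 6.43 on restricted arrays 1 to 4 and 6.54, 6.40 and 6.63 on ad libitum arrays 1 to 3. Ad libitum replicate 2 lay below restricted replicates 3 and 4, so the diets overlapped by 0.07 log2 units. The untested difference was -0.20 ± 0.10, and a level this low was not shown to exceed background.

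Cdkn1c encodes p57, an inhibitor of cyclin-dependent kinases, and is among the genes that Plagl1 is known to bind. It stood at 7.64, 7.91, 7.98 and 7.75 on restricted arrays 1 to 4 and at 7.90, 7.71 and 7.52 on ad libitum arrays 1 to 3. The highest and the lowest value came from different diets, but the ranges lay largely on top of each other. The difference was 0.11 ± 0.12 (95% interval -0.18 to 0.39, limma adjusted p = 0.860). Its size moved with single arrays, at 0.01 without ad libitum replicate 3, 0.06 without restricted replicate 3, 0.17 without restricted replicate 1 and 0.20 without ad libitum replicate 1. It was 0.18 after quantile normalization, 0.19 after median centring and 0.18 with array weights.

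Dlk1 encodes a membrane protein of the Notch ligand type that holds precursor cells, such as preadipocytes, in an immature state. Its values were 7.94, 8.25, 8.40 and 8.14 on restricted arrays 1 to 4 and 8.50, 8.28 and 8.26 on ad libitum arrays 1 to 3. Of the restricted arrays, 3 lay below all ad libitum arrays and replicate 3 lay between ad libitum replicates 1 and 2. The difference was -0.17 ± 0.13 (95% interval -0.46 to 0.13, limma adjusted p = 0.797). It was -0.09 without restricted replicate 1, -0.09 without ad libitum replicate 1, -0.08 after median centring and -0.08 with array weights. Among the tested members, Dlk1 came nearest to Plagl1 in its profile over the 7 arrays, but 14.1% of all tested genes were as near or nearer.

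Peg3 encodes a large zinc finger protein linked to growth and maternal behaviour. It stood at 8.08, 9.10, 9.23 and 8.36 on restricted arrays 1 to 4 and at 8.71, 8.35 and 8.37 on ad libitum arrays 1 to 3. Restricted replicates 2 and 3 were the highest of all arrays and restricted replicate 1 the lowest, so the spread was within a diet. The SD under restriction, 0.56, was at the 98.6th percentile of all tested genes. The difference was 0.21 ± 0.28 (95% interval -0.43 to 0.86, limma adjusted p = 0.877), an interval wide enough to hold a change as large as that of Plagl1 in the opposite direction. The difference was 0.04 without restricted replicate 3, 0.08 without restricted replicate 2, 0.42 without restricted replicate 1, 0.33 without restricted replicate 4, 0.33 without ad libitum replicate 1 and 0.48 with array weights.

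Mest encodes a membrane protein of the hydrolase fold and marks growing fat cells. It was the dimmest member that could be read, from 5.82 to 6.07 under restriction and from 5.91 to 6.10 under ad libitum feeding. The diets overlapped, with an untested difference of -0.05 ± 0.08.

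**Figure D2:**
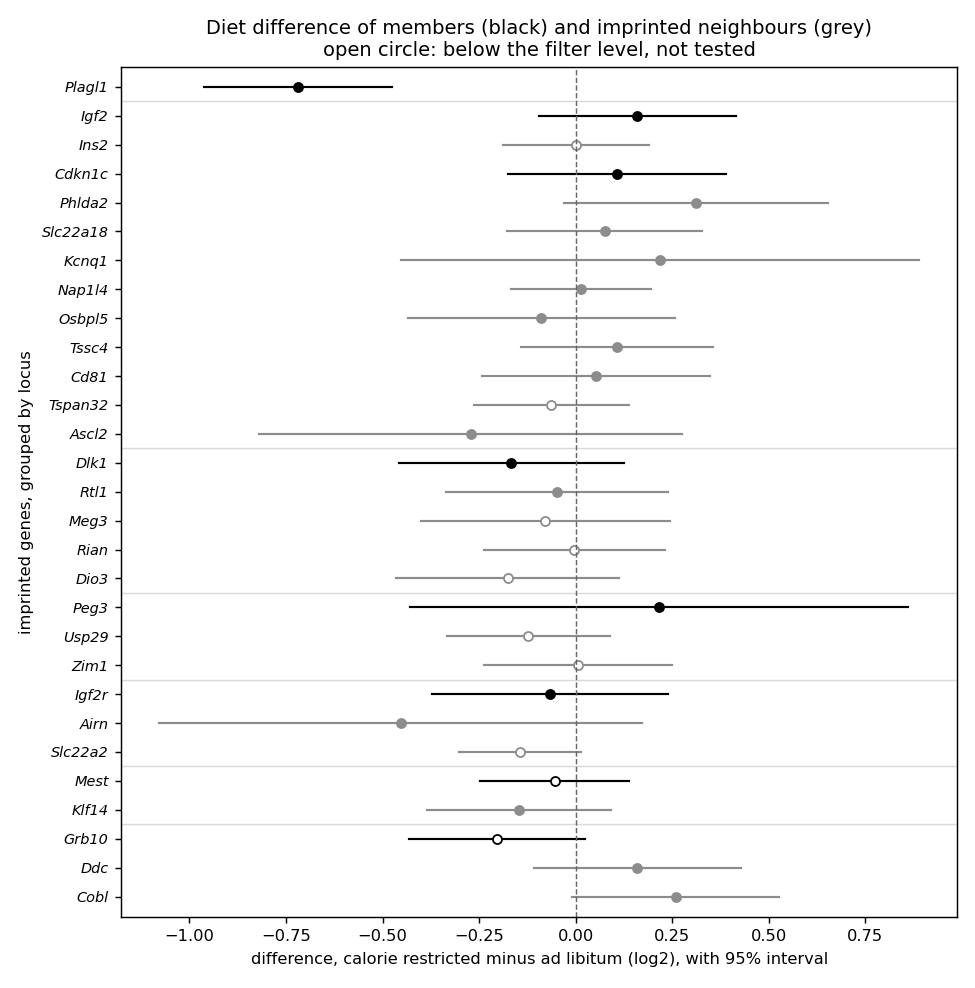
Difference between the diets (calorie restricted minus ad libitum, log2, horizontal axis) with its 95% interval for the readable members (black) and their imprinted neighbours (grey), grouped by locus with rules between loci; open circles are genes below the filter level. The interval of Plagl1 runs from -0.96 to -0.48 and chose the gene; every other interval drawn includes 0.

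Imprinted genes lie in clusters that share a control region, so the neighbours of each member were read as well. On distal chromosome 7, which holds Igf2, H19 and Cdkn1c, 8 neighbours were tested and 0 passed (limma), where 0.664% of all genes tested did. Phlda2, which restrains placental growth, had the largest positive difference there, 0.31 ± 0.15 (limma, adjusted p = 0.60). The potassium channel gene Kcnq1 had 0.22 ± 0.29, and Ascl2, a stem cell transcription factor of the crypt, -0.27 ± 0.24. The other 5, Slc22a18, Nap1l4, Osbpl5, Tssc4 and Cd81, lay between -0.09 and 0.11. In this cluster Igf2 and the genes of the Cdkn1c side therefore gave small values of both signs.

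Around Dlk1, the retrotransposon-derived gene Rtl1 was the neighbour that could be tested, at -0.05 ± 0.13, while the noncoding Meg3 and Rian and the deiodinase gene Dio3 were dim. The neighbours of Peg3, Usp29 and Zim1, were both dim. Beside Grb10, the filament-nucleating gene Cobl had 0.26 ± 0.12 (limma, adjusted p = 0.562) and Ddc, which makes dopamine and serotonin, 0.16 ± 0.12. These are opposite in sign to the dim Grb10. Klf14, a neighbour of Mest, had -0.15 ± 0.10.

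Airn, the noncoding transcript that runs antisense to Igf2r and silences it on the paternal copy, varied more than Igf2r did. It stood at 10.7, 10.8, 10.8 and 11.4 on restricted arrays 1 to 4 and at 10.7, 11.8 and 11.6 on ad libitum arrays 1 to 3. Restricted replicate 4 and ad libitum replicates 2 and 3 were high and the other 4 arrays low, a split that crosses the diets. The same 3 arrays had the highest array medians over all clusters, 7.42 to 7.44 against 7.24 to 7.29 on the other 4, and the part of this in the Airn values was not tested. The difference was -0.45 ± 0.27 (limma, adjusted p = 0.704). The strand that the probes read is not given in the sources used here, so signal from the overlapping Igf2r transcript cannot be told apart.

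A wider list of 56 other imprinted genes gave 46 readable ones, of which 26 were tested and 20 were dim. Of the 26, 0 passed the threshold (limma), 0 had an unadjusted p below 0.05 and 0 had diets that did not overlap, where the shares over all genes tested were 0.664%, 9.30% and 10.2%. Their differences ran from -0.45 to 0.31 with a median of -0.001, and 13 were negative. Of 9 tested genes expressed from the paternal copy, like Plagl1, 7 were negative, with a median of -0.09, which was 0.002 after quantile normalization. The largest of these besides Airn were Mcts2, a translation factor copy (-0.36 ± 0.26), Inpp5f, a phosphoinositide phosphatase (-0.16 ± 0.18), and Sfmbt2, a Polycomb-type protein (-0.16 ± 0.17). Mcts2 showed the same high and low arrays as Airn. Nnat was at -0.09 ± 0.07. Of 17 genes in the list for the maternal copy, 11 were positive, with a median of 0.05, which was -0.003 with no filter on dim genes. The arrays did not measure the parental copy, and the place of Ddc (0.16 ± 0.12) in this list is not certain. Ppp1r9a, a neuronal actin-binding protein, was at -0.19 ± 0.13.

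Of 6 tested paralogs of the members, 0 passed (limma) and 0 had an unadjusted p below 0.05, where 0.664% and 9.30% of all genes tested did, so a count of 0 among so few is near the background. Plagl2, a relative of Plagl1, stood at 10.00 ± 0.16 (SD, n = 4) under restriction and 9.93 ± 0.27 (SD, n = 3) under ad libitum feeding. Its difference was 0.06 ± 0.14. The founding family member Plag1 had -0.05 ± 0.14. Cdkn1b, which encodes the kinase inhibitor p27, had -0.03 ± 0.08, the Dlk1 relative Dlk2 -0.22 ± 0.12, and the adaptors Grb7 and Grb14 0.17 ± 0.13 and 0.01 ± 0.09. Igf1 was dim.

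In the insulin-like growth factor pathway, 0 of 13 tested genes passed (limma) and 2 had an unadjusted p below 0.05. Over all genes tested the shares were 0.664% and 9.30%. Those 2 pathway genes were also the ones whose diets did not overlap, both higher under restriction, where 7.14% of all genes tested were separated in that direction. Irs2, a docking protein of the insulin and IGF1 receptors, stood at 9.26, 9.03, 9.10 and 9.04 on restricted arrays 1 to 4 and at 8.76, 8.75 and 8.83 on ad libitum arrays 1 to 3 (difference 0.33 ± 0.09, limma adjusted p = 0.231). Igfbp4, which binds IGF1 and IGF2 outside the cell, was at 9.81, 9.79, 9.74 and 9.85 against 8.71, 9.49 and 9.34 (difference 0.62 ± 0.17, limma adjusted p = 0.241). Its ad libitum arrays were far apart, with replicate 1 lowest. Enterocyte markers separated the same arrays in the same direction, at means of 11.7 or more against 10.9 or less, and their part in these 2 genes was not tested. The docking protein gene Irs1 and the binding protein genes Igfbp2, Igfbp6 and Igfbp7 had differences from -0.21 to -0.14. The receptor genes Igf1r (-0.03) and Insr (-0.07) were near 0. The list median of -0.05 has no stable sign, since it was 0.01 after quantile normalization, 0.04 after median centring and 0.15 with the filter at the 60th percentile.

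Factors linked to keeping or removing imprints were also read, and 0 of 16 tested passed (limma, 0 at an unadjusted p below 0.05). Over all genes tested the shares were 0.664% and 9.30%, so counts of 0 among so few are near the background. The median of these factors was -0.01, which became 0.07 after median centring and 0.03 without ad libitum replicate 2. Zfp445, a zinc finger protein that guards imprinted control regions, had -0.27 ± 0.14, and its relative Zfp57 was dim. The methylcytosine dioxygenase genes Tet1 and Tet3 had -0.33 ± 0.19 and 0.10 ± 0.10. Setdb1, a histone methyltransferase, had -0.12 ± 0.12, Arid4a -0.18 ± 0.11, and Uhrf1, which brings the maintenance methylase to replicated DNA, 0.24 ± 0.26. With limma's array weights, 8 genes of these pathway lists were called: Airn, Mcts2, Phlda2, Cobl, Ddc, Irs2, Zfp445 and Tet1. That fit called 10.1% of all genes tested, and it weighted the arrays from 0.292 (ad libitum replicate 1) to 2.93 (ad libitum replicate 2).

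The genes whose profile over the 7 arrays was nearest to that of Plagl1 were in none of the imprinted gene lists. Those lists held 26 of the 13409 genes tested, so few that this absence says little. Nearness was the root mean square distance between the values of 2 genes after each was centred on its own mean. Insrr, the insulin receptor-related receptor that senses alkaline pH, was nearest at 0.124 log2 units. Naaladl2 (0.162), the aldo-keto reductase Akr1b10 (0.163), Cmtm7 (0.171), Wdr78 (0.172), the cytokine signalling inhibitor Cish (0.178), the phosphorylase kinase subunit Phkb (0.179) and the chromatin remodeller Chd6 (0.182) followed. A gene with no variation would be at 0.373, and the median over all tested genes was 0.405. Insrr stood at 10.4, 10.3, 10.1 and 9.96 on restricted arrays 1 to 4 and at 10.8, 11.0 and 10.5 on ad libitum arrays 1 to 3. The 4 restricted arrays ranked alike in Insrr and Plagl1. Of the 8, 7 had diets that did not overlap, which their choice by likeness to Plagl1 favours. The other tested members were not among these 8 and lay at 0.340 (Dlk1), 0.364 (Igf2r), 0.443 (Cdkn1c), 0.446 (Igf2) and 0.617 (Peg3).

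**Figure D3:**
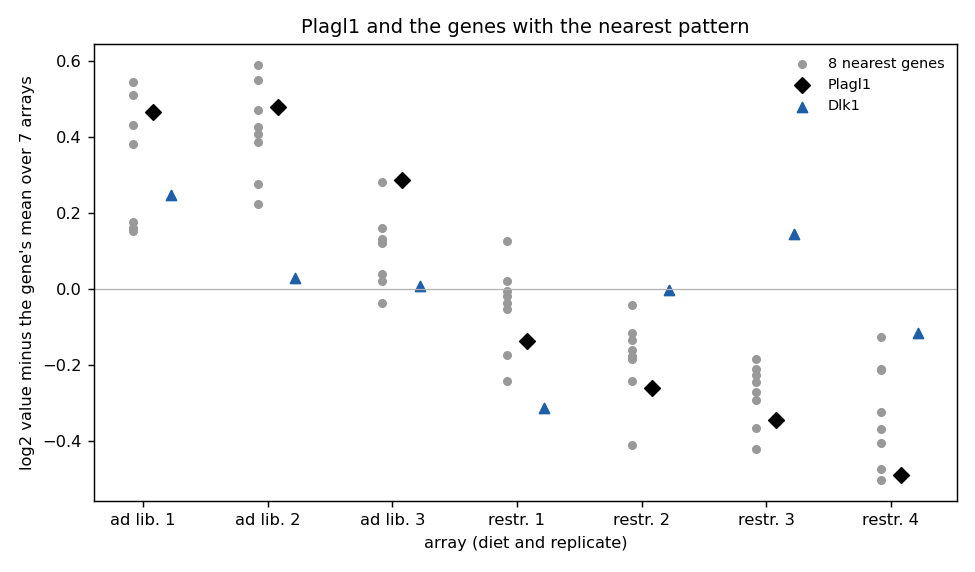
Log2 values on each of the 7 arrays (horizontal axis) after each gene was centred on its mean over all arrays, for Plagl1 (black diamonds), the 8 tested genes with the smallest distance to it (grey points) and Dlk1 (blue triangles), the nearest member. Plagl1 and the 8 genes are mostly high on ad libitum arrays and low on restricted arrays because the 8 were chosen for that likeness. The diets overlap in Dlk1 and, among the 8, in Phkb.

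The arrays were checked for markers of the labelled cell type and of others, using lists of known markers. All 12 Paneth markers were measured, with a mean level of 12.8 to 13.2 on restricted and 13.1 to 13.3 on ad libitum arrays; the lysozyme gene Lyz1 was at 14.31 in both diets, and Clps and Defa24 were among the brightest. All 12 differences were negative, where 45.8% of all genes tested were negative. Their median was -0.06, and 0 passed (limma, 1 at an unadjusted p below 0.05). That 1 was Mptx1, with a far larger difference than the median, -1.42 ± 0.44. Enterocyte markers, led by Anpep, Apoa1 and Fabp2, were also bright, and 21 of 22 were measured. Of these, 10 were called higher under restriction (limma), where 0.656% of all genes tested were. The enterocyte list mean was 11.7 to 11.9 on restricted and 10.2 to 10.9 on ad libitum arrays. Means of goblet markers (Spink4, Muc2 and Tff3 leading) were 13.2 to 13.4 and 13.3 to 13.4, and those of stem cell markers (Olfm4, Sox9, Cdca7) 10.7 to 11.0 and 10.5 to 11.1. Tuft cell markers (Dclk1, Sh2d6, Trpm5) were at 8.31 to 9.34 and 8.73 to 9.34, and enteroendocrine markers (Chga, Gip, Chgb) at 10.3 to 11.3 and 10.3 to 11.0. All 11 enteroendocrine differences were positive, where 7268 of all 13409 genes tested were positive. Their median was 0.26, and 0 passed (limma, 2 at an unadjusted p below 0.05). Markers of fibroblasts and smooth muscle (Vim, Col1a1, Col1a2) had means of 7.67 to 7.94 and 7.78 to 8.0, of endothelium (Vwf, Tie1, Pecam1) 7.08 to 7.25 and 7.09 to 7.35, and of immune cells (Lyz2, Cd3e, Cd68) 8.17 to 8.33 and 8.32 to 8.42. The immune mean was raised by Lyz2, at 12.81 over all arrays. The other tested immune markers, Cd3e, Cd68, Cd8a and Ptprc, were at 6.95 to 7.58. In these 8 lists other than enterocyte markers, 0 genes passed (limma, 6 at an unadjusted p below 0.05). Over all genes tested, 0.664% passed and 9.30% had an unadjusted p below 0.05.

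Enterocyte markers separated the diets as Plagl1 did, in the opposite direction. The enterocyte means were 11.80, 11.90, 11.91 and 11.70 on restricted arrays 1 to 4, beside Plagl1 at 7.53, 7.40, 7.32 and 7.17. Over restricted replicates 1 to 3 a lower Plagl1 went with a higher enterocyte mean, while replicate 4 was lowest in both. On ad libitum arrays 1 to 3 the enterocyte means were 10.88, 10.22 and 10.87, beside Plagl1 at 8.13, 8.14 and 7.95. Replicates 1 and 2 were thus nearly equal in Plagl1 and apart in the markers, and replicates 1 and 3 nearly equal in the markers and apart in Plagl1. The part of enterocyte RNA in the Plagl1 difference was not tested.

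**Figure D4:**
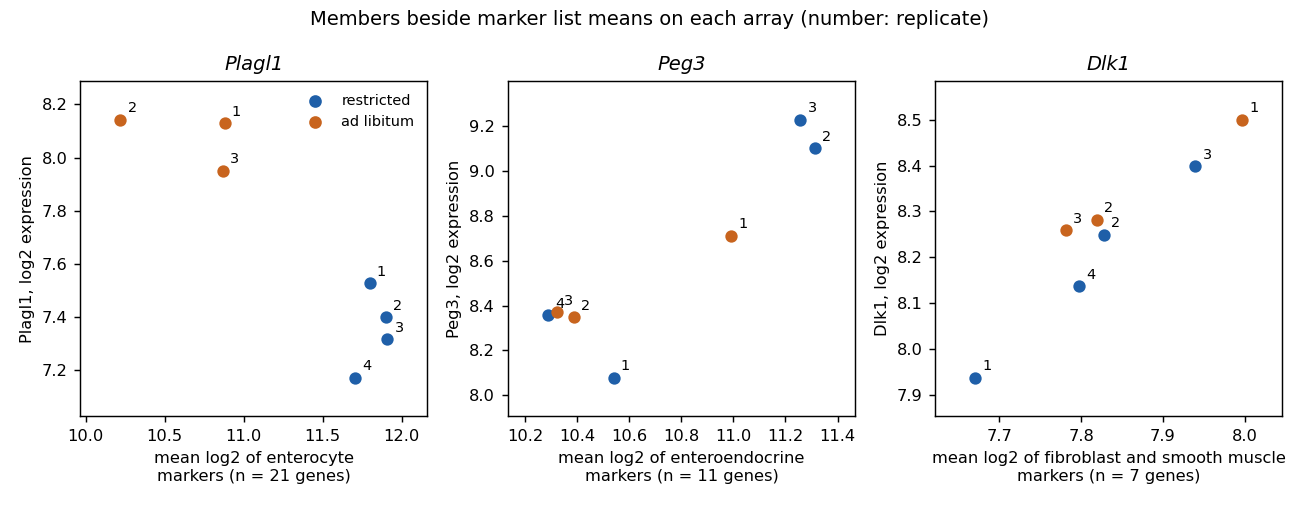
Log2 expression of Plagl1, Peg3 and Dlk1 (vertical axes) against the mean log2 level of enterocyte (21 genes), enteroendocrine (11 genes) and fibroblast and smooth muscle (7 genes) markers, with 1 point per array, blue for restricted and orange for ad libitum, numbered by replicate. Plagl1 falls into 2 groups by diet, and the 3 arrays with the highest Peg3 also have the highest enteroendocrine marker means.

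For the 7 members whose diets overlapped, the level over the 7 arrays was set against the mean of each of the 8 marker lists whose diets overlapped, 56 relations chosen after the values were seen. Of these, 0 passed after Benjamini-Hochberg adjustment of the exact two-sided permutation p. Peg3 and enteroendocrine markers had r = 0.902 (exact permutation p = 0.00933, adjusted p = 0.124) and rho = 0.643 (exact permutation p = 0.139, adjusted p = 0.458). The marker means on restricted arrays 1 to 4 were 10.5, 11.3, 11.3 and 10.3, and on ad libitum arrays 1 to 3 they were 11.0, 10.4 and 10.3. Restricted replicates 2 and 3 and ad libitum replicate 1 were therefore high in both, and without restricted replicates 2 and 3 r was 0.623, so the relation rests largely on those arrays. Dlk1 and the fibroblast and smooth muscle markers had r = 0.952 (exact permutation p = 0.00357, adjusted p = 0.0815) and rho = 0.821 (exact permutation p = 0.0341, adjusted p = 0.273), and r = 0.811 without the 2 farthest arrays. Igf2r and the 3 tested endothelial markers had r = 0.980 (exact permutation p = 0.00179, adjusted p = 0.0815) and rho = 0.929 (exact permutation p = 0.00675, adjusted p = 0.126), and r = 0.970 without the 2 farthest. Igf2 and immune markers ran in opposite directions, with r = -0.916 (exact permutation p = 0.00437, adjusted p = 0.0815) and rho = -0.964 (exact permutation p = 0.00278, adjusted p = 0.126), and r = -0.881 without the 2 farthest. The endothelial, fibroblast and immune means each moved by less than 0.4 log2 units over all arrays. The immune mean included Lyz2, which was far brighter than the other tested markers of that list. No batch, slide or scan date is given in the sources used here, so these relations could not be taken within batches.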

How the data were processed

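The authors deposited log2 expression values per transcript cluster. Per the submitters' processing notes, these came from Affymetrix Expression Console; 10 ug of total RNA was labelled per array, per the labels' protocols. How it was set up (algorithm, version, background, normalization) is not given in the sources used here. A log2 scale was inferred from the range of the deposited values, about 2.97 to 14.7. Of 35556 clusters, 21789 have 1 symbol in the platform annotation, 1621 several, and 12146 are unnamed here. The brightest single-symbol cluster was kept for each of 19938 genes, and 13409 with a mean at or above the 40th percentile were tested.

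The comparison of diets used limma (version 3.58.1, R 4.3.3), with lmFit and eBayes with an intensity trend, without covariates, with Benjamini-Hochberg adjustment over all genes tested and a call at adjusted p below 0.05. Dim genes have differences from the unfiltered fit. Alternatives were quantile normalization, median centring, no filter, a 60th percentile filter, the mean of all clusters, no trend, array weights, a replicate block, and fits without each array in turn. The fit was tested on simulated data. Named genes were all members and up to 6 genes per pathway list with the smallest p. They also held the 3 brightest genes of each marker list and the 8 genes nearest to Plagl1. The neighbours of the members and Mptx1 were singled out after their values were seen. Members and lists were chosen with earlier results of these data known. The number of arrays limits the precision. Figures used matplotlib (version 3.10.9).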

Additional observations from a re-analysis of the deposited data

Results flagged for a closer look

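In 4 of 88 groups of 4 restricted arrays, 1 array stood far from the other 3 (gap over range above 0.829); chance flags about 1 group in 20. For Airn the ratio was 0.880, with restricted replicate 4 at 11.4 and the others at 10.7 to 10.8. For the imprinted gene Nnat it was 0.836, with replicate 2 at 6.94 and the others at 7.03 to 7.05. For the goblet marker Spink4 it was 0.844, with replicate 4 at 13.98 and the others at 14.10 to 14.12. For the endothelial marker Vwf it was 0.855, with replicate 2 at 7.49 and the others at 7.57 to 7.58.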

How the results depend on the processing

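The difference of Plagl1 was -0.66 after quantile normalization, -0.63 after median centring and -0.66 with the replicate block (limma, adjusted p = 0.121, 0.106 and 0.176), none of them past the threshold, and -0.78 to -0.66 in the fits without 1 array, of which only that without ad libitum replicate 3 called it (adjusted p = 0.0448). Adjusted p was 0.0686, 0.117, 0.119 and 0.0586 without restricted replicates 1 to 4, and 0.0598 and 0.152 without ad libitum replicates 1 and 2. The filter at the 60th percentile left Plagl1 out. The count of lower genes, 1 in the chosen fit, was 0 after quantile normalization, median centring, the stricter filter and the replicate block, 2 with no filter (Plagl1 and Gm5420), 392 with array weights and 0 to 9 without 1 array. The count of higher genes, 88, was 53 after quantile normalization, 963 with array weights, 0 with the replicate block and 12 to 97 without 1 array. Same-numbered arrays of the 2 diets did not deviate together (correlations over genes of -0.13, -0.27 and -0.55). The deviations were centred within each diet, so these values cannot decide whether the numbers pair the samples. The fit with array weights called 10.1% of all genes tested. In it, 2 other imprinted genes of the paternal list and 3 of the maternal list, Ddc among them, were called. So were 1 gene of the growth factor pathway and 2 factors linked to keeping or removing imprints. The difference of Igf2r turned to 0.0201 after median centring, 0.0493 with array weights and 0.0468 without ad libitum replicate 1, and ranged from -0.170 to 0.0468 in the fits without 1 array. Median centring adds the same constant to the difference of every gene, so the turn of Igf2r in that fit is a shift shared by all genes. The cause of the other changes was not tested. The median over all genes tested, 0.01, became 0.10 after median centring. The number of arrays limits the precision.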
